A study of Arabidopsis thaliana with 12 samples.

Results

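RRP44A and CER7 are genes of the RNA exosome that lie in the windows of the study's putative enhancers, and their windows are 2 of the 1919 read out here. They were chosen because they lie in genes of the exosome (identifiers enhancer_000559 for RRP44A, AT2G17510, and enhancer_001171 for CER7, AT3G60500). Each window spans 3000 bases and carries a deposited RNA signal for each strand. RNA came from 7-day-old Arabidopsis thaliana seedlings of 1 inducible RNA interference line, RRP41-iRNAi, which targets RRP41, another core subunit of the exosome. Seedlings grown with 17b-estradiol formed the induced group (rrp41-i) and seedlings of the same line without induction the control (RRP41), so all groups carry the construct and a change after knockdown means induced against uninduced. The induced libraries share estradiol, the induced construct and the intended loss of RRP41, which cannot be told apart. Each total RNA sample gave a poly(A)+ library and a ribo-minus library, the latter rid of ribosomal RNA but keeping RNA without a poly(A) tail. The 4 groups, each fraction with and without induction, hold 3 biological replicates each.

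The exosome trims and degrades RNA from its 3′ end in the nucleus and the cytoplasm. A ring of RNase PH-type subunits, RRP41 among them, forms a barrel, and in yeast Rrp44 (Dis3), a ribonuclease of the RNase II family, binds it and degrades the RNA. RRP44A is a plant counterpart of that nuclease, annotated in RefSeq as a ribonuclease II family protein under another symbol, EMB2763. CER7, also named RRP45B, is an RNase PH-type subunit of the ring, annotated as a 3′-5′-exoribonuclease family protein. It is known for stem wax: without CER7, small RNAs silence the wax gene CER3.

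Both windows lie over transcribed genes but in different parts of them. The RRP44A window (chr2:7610457-7613456, TAIR10) falls wholly inside the gene, which runs on the minus strand from 7609236 to 7616342. It holds 1133 bases of coding exons and 1867 bases of introns and no UTR, and no gene is annotated on its plus strand. The CER7 window (chr3:22355101-22358100) covers the 3′ part of CER7, which runs on the plus strand from 22353845 to 22356849, and its midpoint at 22356601 is in the 3′ UTR. The strand opposite CER7 is not empty of genes. It holds the 3′ part of AT3G60510, annotated as a Clp protease/crotonase family protein, which runs on the minus strand from 22356754 to 22360276. The 2 genes point at each other, and their ends overlap by 96 bases (22356754 to 22356849). Within the window CER7 has 1380 exonic and AT3G60510 1016 exonic bases. The signal opposite CER7 is named by AT3G60510 below, though that gene covers 44.9% of the window. With a single value per strand, RNA antisense to CER7 from the rest of that strand cannot be told apart from RNA of AT3G60510. No other window overlaps these or holds the same genes.

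**Figure D1:**
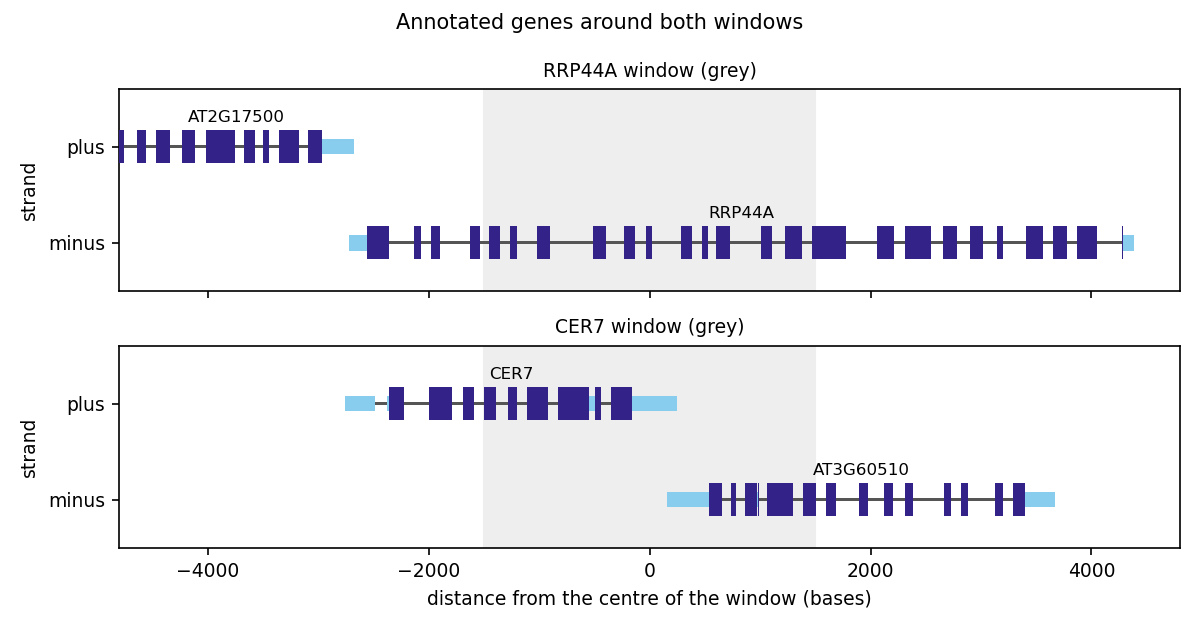
Annotated genes around both windows, by distance from the centre of the window in bases (x axis) and strand (y axis). Dark blocks are coding exons, light blocks UTR exons, thin lines introns, merged over the annotated transcripts, and grey the window of 3000 bases: RRP44A alone fills the first, whereas CER7 and AT3G60510 meet tail to tail in the second.

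The stretches below show what each window measures. The first is the 300 bases round the centre of the RRP44A window, on the gene's strand, with exon bases in capitals and introns in lower case, so that most of the stretch is intron. The others are, for each gene of the CER7 window, the longest stretch inside the window that is coding in every annotated transcript, each read on its own gene's strand and thus from opposite strands. All come from the RefSeq TAIR10.1 genome.
RRP44A window centre (chr2:7611807-7612106, minus strand): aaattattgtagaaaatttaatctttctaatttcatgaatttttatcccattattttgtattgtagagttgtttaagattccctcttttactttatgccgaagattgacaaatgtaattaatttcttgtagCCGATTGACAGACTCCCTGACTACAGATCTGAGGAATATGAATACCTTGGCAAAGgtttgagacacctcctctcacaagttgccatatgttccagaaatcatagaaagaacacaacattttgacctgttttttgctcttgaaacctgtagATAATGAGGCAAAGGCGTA
CER7 coding stretch (chr3:22355768-22356006, plus strand): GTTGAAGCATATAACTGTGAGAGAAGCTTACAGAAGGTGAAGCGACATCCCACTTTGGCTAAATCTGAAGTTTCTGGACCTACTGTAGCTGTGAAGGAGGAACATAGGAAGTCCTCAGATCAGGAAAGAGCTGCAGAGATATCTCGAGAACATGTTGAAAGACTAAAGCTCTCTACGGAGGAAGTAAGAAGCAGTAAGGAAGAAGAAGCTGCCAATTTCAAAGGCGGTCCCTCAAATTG
AT3G60510 coding stretch (chr3:22357991-22358100, minus strand): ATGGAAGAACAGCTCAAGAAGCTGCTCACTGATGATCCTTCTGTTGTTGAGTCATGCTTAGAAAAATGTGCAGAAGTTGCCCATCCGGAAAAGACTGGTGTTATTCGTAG
The RRP44A stretch holds 74 exon bases of 300 and has 33.7% G and C. The coding stretches of 239 and 110 bases have 44.4% and 43.6%.

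In 11 of the 12 libraries the strands were separated. Replicate 1 of the ribo-minus uninduced group held equal values for both strands in all 1919 windows (3647 at RRP44A and 1545 at CER7), so it was left out of the strand comparisons and that group has n = 2 below. Total signal ran from 55804893 to 58489785 in poly(A)+ and from 18738150 to 31455657 in ribo-minus libraries. Read numbers are unknown, and the smallest value above 0 in a library (107 to 1005) serves as its detection limit. Among the 1124 windows with genes on 1 strand, the gene's strand was the higher in 90.7% to 96.2% of windows in the 11 libraries. RRP41 itself lies in no window (0 of 1919), so the knockdown was not measured here. Of 23 marker genes of green tissue, root, flower and seed, 1 has a window (ESB1 of the root endodermis, 1097 to 10915 over the 11 libraries), so the tissue label could not be checked further. After knockdown limma called ESB1 lower in poly(A)+ RNA (log2 change −0.98 ± 0.15 SE, adjusted p = 0.0159) and did not call it in ribo-minus RNA (−1.27 ± 0.53, adjusted p = 0.329). The part of this marker's change in the values below was not tested. Bulk seedling RNA does not tell fewer expressing cells from less RNA per cell.

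RRP44A signal came from its own strand. On the gene strand the uninduced poly(A)+ libraries held 15306, 13322 and 13300, and the induced ones 14114, 15191 and 12611. The ribo-minus libraries held 7620 and 6022 uninduced (replicates 2 and 3) and 8749, 7429 and 6939 induced. As deposited, poly(A)+ values were thus all above ribo-minus values, and induced and uninduced libraries overlapped in both fractions. These levels are 31.4 to 83.9 times the library's smallest value in poly(A)+ and 7.58 to 69.4 times in ribo-minus libraries. They stood above 64.4% to 80.4% of the strands that had signal in the same library.

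Opposite RRP44A, where no gene is annotated, signal lay at the detection limit or was listed at 0. It was 418, 0 and 441 in the uninduced and 0, 0 and 325 in the induced poly(A)+ libraries. It was 0 and 0 in the uninduced and 0, 215 and 238 in the induced ribo-minus libraries. Signal was thus listed in 5 of 11 libraries, and each of these values was between 1.25 and 2.01 times the smallest value of its library. The opposite strand took at most 3.32% of the window's signal in any of them. In the uninduced ribo-minus libraries a single smallest value would have been 11.7% and 11.5% of the window's signal, so a smaller share was not detectable there. Their smallest values were 1005 and 786, against 107 and 178 in the induced ribo-minus replicates 2 and 3 that had signal. The induced replicate 1, listed at 0, had a smallest value of 776, or 8.15% of the window's signal. The part of these limits in the pattern was not tested. No fold change is given for this strand, since all groups lie near the limit, and the shares of the groups did not differ past the threshold in any of the 4 comparisons (two-sided exact permutation p = 0.4 to 0.6, adjusted 0.6 over the 4). The smallest p is 0.1 for 3 against 3 libraries and 0.2 for 3 against 2. limma did not call this strand for knockdown in poly(A)+ (adjusted p = 0.691), for the fractions (0.228 uninduced and 0.622 induced) or for the interaction (0.658), and it was not tested for knockdown in ribo-minus RNA, where it is above 0 in 2 of 5 libraries. Its ratio to the gene strand was not called where tested (limma adjusted p = 0.512 to 0.827).

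Such a sparse opposite strand was common. Over the 11 libraries the RRP44A window had 1.34% of its signal on the opposite strand, where the median of windows with genes on 1 strand was 2.40%. Of these 1124 windows, 535 had opposite signal in 5 libraries or fewer and 78 in none. Among the 70 of them that lie wholly inside a gene, as RRP44A's does, 30 had opposite signal in 5 libraries or fewer, and the median share was 2.59%.

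In the CER7 window both strands were well above the limit, and CER7 held the larger part. On the CER7 strand the uninduced poly(A)+ libraries held 11837, 13196 and 13492, and the induced ones 13230, 13422 and 15203. The ribo-minus libraries held 4711 and 4846 uninduced and 6158, 4454 and 4674 induced. As deposited the fractions did not overlap, and induced and uninduced libraries did. For AT3G60510 the poly(A)+ values were 10416, 11512 and 8489 uninduced and 8913, 10065 and 8522 induced. Its ribo-minus values were 4155 and 3114 uninduced and 4466, 3159 and 3197 induced. Each value was below that of CER7 in the same library, the fractions were again apart, and induced and uninduced libraries overlapped. In the uninduced ribo-minus libraries these values are only 4.69 and 6.17 (CER7) and 4.13 and 3.96 (AT3G60510) times the smallest value, closer to the limit than in the other groups.

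**Figure D2:**
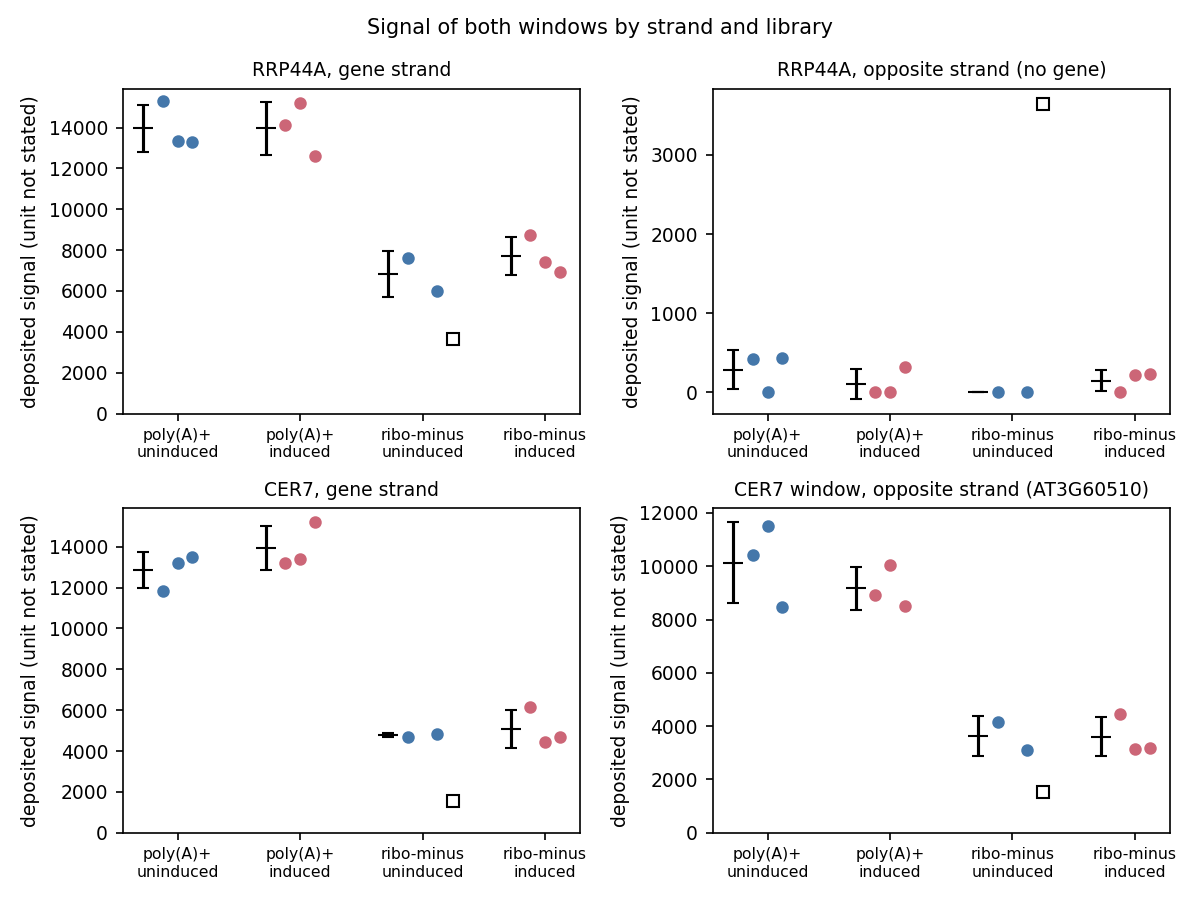
Deposited signal (y axis, unit not stated) of each strand of both windows by group (x axis). Points are libraries, bars the mean and SD of the libraries with separated strands, and the open square is ribo-minus uninduced replicate 1, whose strands were not separated: the 3 annotated strands are lower in the ribo-minus fraction on this scale (with median-ratio scaling the direction turns for RRP44A and, in induced seedlings, for AT3G60510, and CER7 is no longer called), and the strand opposite RRP44A stays between 0 and 441 in the 11 separated libraries.

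Induction of the RRP41 knockdown, whose strength was not measured here, left no called change at either exosome gene or at AT3G60510. In poly(A)+ libraries RRP44A was 13976 ± 1152 uninduced and 13972 ± 1296 induced (SD, n = 3 each), a log2 change of −0.0014 ± 0.10 (SE) with a 95% interval of −0.25 to 0.25. CER7 was 12842 ± 883 and 13952 ± 1088, a log2 change of 0.12 ± 0.10 (interval −0.11 to 0.35). AT3G60510 was 10139 ± 1530 and 9167 ± 802, a log2 change of −0.14 ± 0.14 (interval −0.46 to 0.19). limma called 0 of these 3 strands (adjusted p = 0.519 to 0.995), and 0 had an unadjusted p under 0.05, beside 4.12% of all 3297 tested strands called in that comparison. For all 3, each group's values reach into the range of the other.

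The same held in ribo-minus RNA, with wider intervals. RRP44A was 6821 ± 1130 uninduced (n = 2) and 7706 ± 936 induced (n = 3), a log2 change of 0.18 ± 0.18 (interval −0.26 to 0.61). CER7 was 4779 ± 95.5 and 5095 ± 927, a log2 change of 0.08 ± 0.21 (interval −0.42 to 0.58). AT3G60510 was 3635 ± 736 and 3607 ± 744, a log2 change of −0.02 ± 0.27 (interval −0.66 to 0.63). Again limma called 0 of 3 (adjusted p = 0.613 to 0.999), with 0 at an unadjusted p under 0.05, beside 0.349% of 2868 strands. With median-ratio scaling RRP44A had 0.40 (interval 0.02 to 0.77, which does not span 0; limma adjusted p = 0.275), CER7 0.29 (adjusted p = 0.330) and AT3G60510 0.20 (adjusted p = 0.594), again with 0 of 3 called. Nor did the knockdown change differ between the fractions past the threshold. The difference of log2 changes, ribo-minus minus poly(A)+, was 0.18 ± 0.20 for RRP44A, −0.04 ± 0.21 for CER7 and 0.12 ± 0.28 for AT3G60510 (adjusted p = 0.818 to 0.982), where 1.18% of 3482 strands were called.

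All 3 annotated strands were lower in the ribo-minus fraction on the deposited scale, a direction that turned for RRP44A, and for AT3G60510 in induced seedlings, with median-ratio scaling of the libraries. CER7 was 2.68-fold lower in uninduced seedlings (log2 −1.42 ± 0.16 SE, adjusted p = 6.95e-06) and 2.76-fold lower in induced ones (−1.47 ± 0.14, adjusted p = 1.66e-06). AT3G60510 was 2.80-fold lower uninduced (−1.48 ± 0.21, adjusted p = 5.88e-05) and 2.57-fold lower induced (−1.36 ± 0.19, adjusted p = 3.98e-05). RRP44A was 2.06-fold lower uninduced (−1.04 ± 0.15, adjusted p = 8.17e-05) and 1.82-fold lower induced (−0.86 ± 0.14, adjusted p = 0.00014). limma called 51.3% of all 3482 tested strands in uninduced seedlings, with 49.2% lower in ribo-minus RNA, and 49.3% in induced ones, with 47.8% lower. A call like that of these 3 was thus common among the windows.

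Among all strands CER7 and AT3G60510 lay near the median fraction difference and RRP44A above it. The median log2 difference of all tested strands was −1.44 uninduced and −1.35 induced, and median-ratio scaling moved it to −0.23 and 0.04. Relative to the median on the deposited scale, CER7 stood at 0.02 and −0.11 and AT3G60510 at −0.04 and −0.0095. RRP44A stood at 0.40 and 0.49, with 64.3% and 66.1% of strands below it, well inside the spread of the windows. With median-ratio scaling CER7 (−0.19 and −0.067) and AT3G60510 (−0.25 and 0.038) were no longer called (adjusted p = 0.203 to 0.924). RRP44A turned to 0.19 uninduced (adjusted p = 0.355) and 0.54 induced (adjusted p = 0.0144), where ribo-minus RNA was then the higher fraction.

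**Figure D3:**
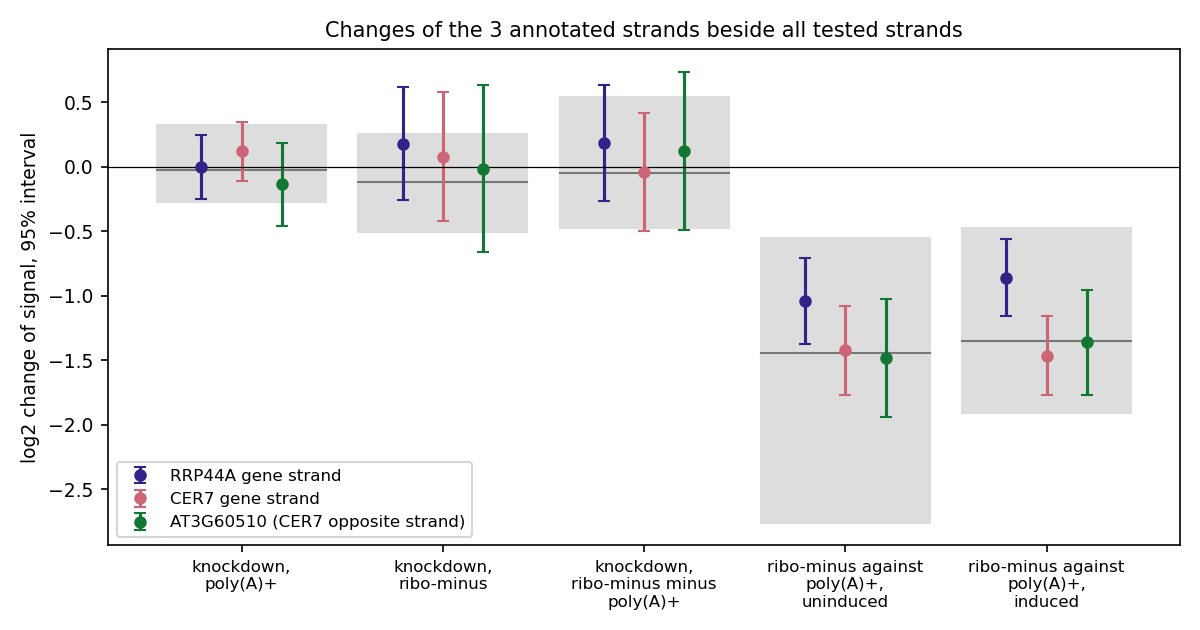
Log2 change of signal (y axis) of the 3 annotated strands in each comparison (x axis), on the deposited scale. Points are limma estimates with 95% intervals, and the grey boxes and lines give the quartiles and median of all tested strands: the knockdown intervals all span 0, and the fraction differences of CER7 and AT3G60510 lie near the median while RRP44A lies 0.40 and 0.49 above it; with median-ratio scaling its difference turned to 0.19 and 0.54.

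Whether RRP44A and CER7 differ in this respect was tested on the ratio of their gene strands within each library, which does not depend on how libraries were scaled. The comparison was chosen after the values were seen. In poly(A)+ RNA the log2 ratio of RRP44A to CER7 was 0.37, 0.01 and −0.02 uninduced and 0.09, 0.18 and −0.27 induced. In ribo-minus RNA it was 0.69 and 0.31 uninduced and 0.51, 0.74 and 0.57 induced. The lowest ribo-minus library (0.31) lay below the highest poly(A)+ library (0.37), and all others were apart. The mean was 0.06 ± 0.21 (SD, n = 6) in poly(A)+ and 0.56 ± 0.17 (n = 5) in ribo-minus libraries, a 1.42-fold higher ratio in ribo-minus RNA (two-sided exact permutation p = 0.00866, adjusted 0.0433 over 5 comparisons). This test pools both conditions and takes libraries of the same total RNA as independent. Its adjustment does not cover the choice of the comparison. The adjusted p was 0.0397 without poly(A)+ uninduced replicate 1 and 0.0476 without ribo-minus uninduced replicate 3, and it rose to 0.0794 or 0.0952 without any other single library, with a difference of 0.44 to 0.57 throughout. With a library left out, 0.0397 and 0.0476 are the smallest adjusted p-values possible. Only full separation of the fractions could thus pass, and the rise does not measure a weaker difference. Paired by their total RNA, 5 of 5 ribo-minus libraries had the higher ratio, with a mean difference of 0.57 ± 0.20 (SD) and an exact sign-flip p = 0.0625, the smallest that 5 pairs allow. Within conditions the difference was 0.38 uninduced and 0.60 induced (exact permutation p = 0.4 and 0.1, adjusted 0.6 and 0.25), and the knockdown difference of the ratio was −0.12 in poly(A)+ and 0.10 in ribo-minus RNA (exact permutation p = 0.6 each, adjusted 0.6). None of these could pass, since the smallest p is 0.1 for 3 against 3 libraries and 0.2 for 3 against 2. The fractions of induced seedlings did not overlap and reached that smallest p. The windows differ in makeup, since RRP44A's is internal and mostly intron and CER7's holds its 3′ end, and the part of that in the ratio was not tested.

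**Figure D4:**
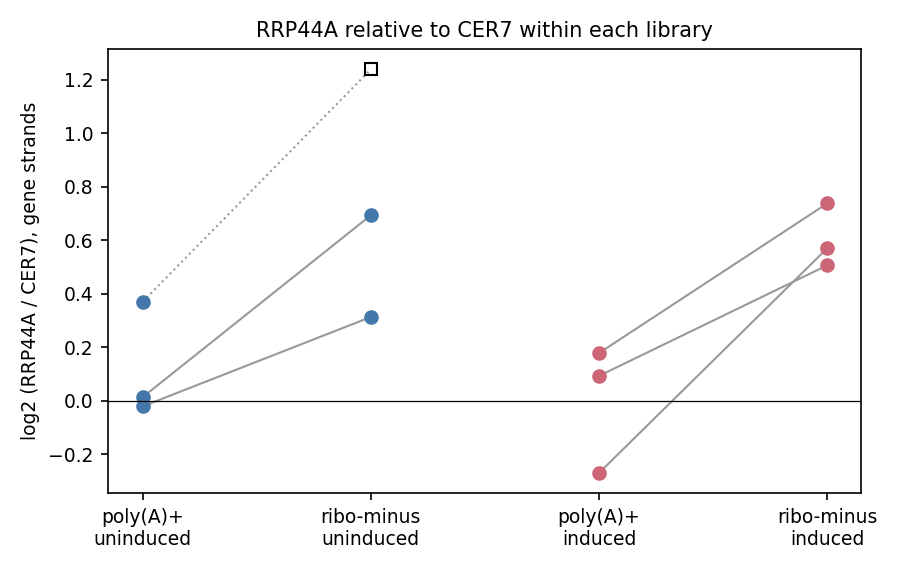
Log2 ratio of the RRP44A to the CER7 gene strand (y axis) in each library, by fraction and condition (x axis). Lines join libraries of the same total RNA, and the open square with a dotted line is ribo-minus uninduced replicate 1, whose strands were not separated and which is not in the test: the ratio is higher in ribo-minus RNA in all 5 separated pairs.

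Of the convergent pair, CER7 was the higher strand in each of the 11 libraries. In poly(A)+ RNA it held 1.14, 1.15 and 1.59 times the signal of AT3G60510 uninduced and 1.48, 1.33 and 1.78 times induced. The ribo-minus ratios were 1.13 and 1.56 uninduced and 1.38, 1.41 and 1.46 induced. The 4 groups overlap. Within the window CER7 also has more exonic bases (1380 against 1016), and the part of this in the ratios was not tested. The ratios thus do not rank the expression of both genes. The knockdown difference of the log2 ratio was 0.26 ± 0.21 (SE, adjusted p = 0.64) in poly(A)+, where limma called 4.73% of 1415 windows, and 0.09 ± 0.30 (adjusted p = 0.966) in ribo-minus RNA, where 15.7% of 1019 were. Ribo-minus minus poly(A)+ it was 0.06 ± 0.31 uninduced (adjusted p = 0.928; 11.3% of 1588 windows called) and −0.10 ± 0.27 induced (adjusted p = 0.896; 1.76% called). The knockdown change of the ratio differed between fractions by −0.16 ± 0.41 (adjusted p = 0.931; 4.6% called). As a share, AT3G60510 took 44.0% ± 4.67 uninduced and 39.7% ± 3.50 induced in poly(A)+ (SD, n = 3 each), and 43.0% ± 5.48 (n = 2) and 41.4% ± 0.716 (n = 3) in ribo-minus libraries. Of the 4 comparisons of shares, 0 passed (two-sided exact permutation p = 0.3 to 0.8, adjusted 0.8). None could, since the smallest p is 0.1 for 3 against 3 libraries and 0.2 for 3 against 2. Of 772 windows with genes and signal on both strands, 7.77% were more evenly balanced than the CER7 window, whose strands differ 1.38-fold on average against a median of 7.77-fold.

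Many strands correlated highly with these genes over the 11 libraries. RRP44A correlated best with AT2G43180, a phosphoenolpyruvate carboxylase family gene (Pearson r = 0.989 of log2 signal), then with the window of AT1G67850 and AT1G67856 (0.988) and with SDG2, a histone methyltransferase (0.987). CER7 correlated best with the window of AT1G16700 and AT1G16705 (r = 0.997), with that of AT2G01310 and ABCG7 (0.995) and with TOC159, a receptor of the chloroplast protein import machinery (0.995). For AT3G60510 the closest were AT2G43180 (0.990), the window of AT2G45030 and AT2G45040 (0.987) and AT1G22540 (0.986). Of 2139 strands compared, 958 had r above 0.9 with RRP44A, 1222 with CER7 and 1150 with AT3G60510. These are descriptions over points that share their libraries and the difference between fractions. The r does not measure the size of that difference. AT2G43180 averaged 10640 in poly(A)+ and 2719 in ribo-minus libraries, and SDG2 17412 and 7945. The group means of RRP44A were 13976 and 13972 in poly(A)+ and 6821 and 7706 in ribo-minus libraries.

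Other genes of RNA decay, silencing and wax showed no called knockdown change either, and most were lower in the ribo-minus fraction on the deposited scale. Of 12 exosome genes on the list examined, 2 (RRP44A and CER7) have windows, and of 9 exosome cofactors 0 have. Of the other lists, 2 of 9 further RNA decay genes, 1 of 6 RNA silencing genes and 1 of 11 wax genes have windows, with 6 gene strands in all. XRN3, a nuclear 5′-to-3′ exoribonuclease, ranged from 13022 to 45110 over the 11 libraries and DCP2, the decapping enzyme, from 4150 to 19443. DCL2, a Dicer-like protein that makes small interfering RNAs, ranged from 2409 to 10289 in one window and from 3307 to 12448 in another. CER2, which acts in the elongation of wax precursors, ranged from 11621 to 21145 and from 13399 to 32745 in its overlapping windows. After knockdown limma called 0 of 6 in poly(A)+ (log2 changes of −0.15 to 0.12, adjusted p = 0.25 to 0.989) and 0 of 6 in ribo-minus RNA (−0.33 to 0.28, adjusted p = 0.503 to 0.999), and 0 had an unadjusted p under 0.05 in either. Over all tested strands 4.12% and 0.349% were called, so 0 of 6 is near the background. limma called ribo-minus RNA lower at 5 of 6 in both conditions, beside 49.2% of all tested strands uninduced and 47.8% induced, with log2 differences from −0.86 (CER2) to −2.02 (DCP2) uninduced, and the remaining CER2 window had −0.32 (adjusted p = 0.178) and −0.34 (adjusted p = 0.116). The median difference of the 6 was −1.33 uninduced and −1.45 induced, beside −1.44 and −1.35 over all tested strands.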

How the data were processed

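RNA-seq of 12 libraries was deposited by the authors as a signal per window of 3000 bases and strand, in whole numbers. Per the submitters' processing notes, CASAVA 1.8.2, TopHat2 2.0.9, Cufflinks 2.1.1, Cuffdiff and TAIR10 were used. How the signal was made is not given in the sources used here. Its smallest values above 0 differ between libraries and lie far above 1, so it was not treated as read counts. Forward and reverse columns were read in the order the deposited names give. Genes and sequences came from RefSeq TAIR10.1, whose nuclear chromosomes are those of TAIR10.

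limma 3.58.1 (R 4.3.3; lmFit, eBayes with trend) was fitted to log2(signal + 1) of every strand that was not 0 in 3 or more of the fitted libraries, with Benjamini-Hochberg adjustment over all tested strands (called: adjusted p under 0.05). Each fraction had its own knockdown fit (6 and 5 libraries), and fraction contrasts and the interaction used 11 libraries. P-values measure the spread between libraries of different biological replicates. The fraction contrasts and the interaction take libraries of the same total RNA as independent. Fold changes are thus on the log2(signal + 1) scale. The log2 ratio of strands was fitted over all windows with both strands above 0 in at least 3 libraries. Shares and the within-library ratio were compared by exact permutation tests (scipy 1.17.1, numpy 2.4.6 and pandas 2.3.3 under Python 3.11.15; figures by matplotlib 3.10.9). The fits were also run on simulated data with independent libraries, a common spread and no values near the detection limit. That check does not cover paired libraries or strands near the limit.

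Groups and replicate numbers came from the labels. Poly(A)+ and ribo-minus libraries of the same number share their total RNA per the labels' protocols, and their deviations from group means correlated in each of the 5 pairs (r = 0.116 to 0.405 over 1653 strands). In the uninduced ribo-minus group, with n = 2, the deviations mirror each other. The r of its pairs (0.235 and 0.202) are thus not separate, and mismatched pairs were not compared. Members, lists and tests were chosen with earlier results of these data known. The rule for named genes takes the members, other genes in their windows, all strands of the listed genes and, for each annotated strand, the 3 strands with the highest correlation over 11 libraries. Alternatives were a pseudocount of 0.1, a common floor, no filter, no trend, median-ratio scaling, a replicate block, the unstranded library and each library left out.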

Additional observations from a re-analysis of the deposited data

How the results depend on the processing

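No knockdown or interaction result at annotated strands and no strand ratio passed in any alternative. No opposite share could (smallest exact p 0.1). Median-ratio scaling turned RRP44A from −0.0014 to 0.048 (log2) for knockdown in poly(A)+, AT3G60510 to 0.20 for knockdown in ribo-minus, and the CER7 interaction to 0.13. It moved the ribo-minus knockdown of RRP44A from 0.18 to 0.40 and of CER7 from 0.08 to 0.29, and that of AT3G60510 in poly(A)+ from −0.14 to −0.09. The fraction difference became 0.19 (uninduced) and 0.54 (induced) for RRP44A, −0.19 and −0.067 for CER7, and −0.25 and 0.038 for AT3G60510. The unstranded library gave 0.48 for RRP44A and 0.62 for CER7 for knockdown in ribo-minus. It turned the AT3G60510 knockdown in ribo-minus to 0.39, the CER7 interaction to 0.50, the uninduced fraction difference of the CER7 strand ratio to −0.077, and the ribo-minus knockdown of the RRP44A to CER7 ratio to −0.14. With it RRP44A's opposite share differed by −14.6 (ribo-minus knockdown) and 14.7 percentage points (uninduced fractions), and CER7's by 1.32 (uninduced fractions). Its equal columns make each of its shares 50%. The cause of the remaining changes was not tested. With the replicate number as a block, the ribo-minus knockdown was 0.08 for RRP44A and −0.18 for AT3G60510, CER7 turned to −0.067 for knockdown in ribo-minus and 0.016 for the interaction, its uninduced strand ratio between fractions to −0.023, and the RRP44A to CER7 ratio between fractions was 0.57 (exact p = 0.0625, the smallest 5 pairs allow). The block changed no other call. For knockdown the numbers share no stated source, and the same-numbered libraries correlated with r = 0.0799, 0.107 and −0.0953 in poly(A)+ and 0.00937 and 0.000236 in ribo-minus.

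Leaving out each library (a lone uninduced ribo-minus library is assumed to vary like the others) gave the ranges that follow where a sign or call changed or a strand's knockdown value moved by over 1.5 times. For knockdown in poly(A)+ it was −0.064 to 0.070 for RRP44A, 0.056 to 0.16 for CER7, −0.26 to −0.040 for AT3G60510, 0.14 to 0.42 for the CER7 strand ratio and −0.21 to 0.015 for the RRP44A to CER7 ratio. For knockdown in ribo-minus it was 0.0092 to 0.35 for RRP44A, −0.067 to 0.17 for CER7, −0.22 to 0.19 for AT3G60510, −0.14 to 0.32 for the CER7 strand ratio, −0.089 to 0.29 for the RRP44A to CER7 ratio and −5.48 to 2.26 percentage points for the CER7 opposite share. For the interaction it was 0.011 to 0.35 for RRP44A, −0.19 to 0.048 for CER7, −0.085 to 0.33 for AT3G60510 and −0.39 to 0.064 for the strand ratio. Between fractions the strand ratio had −0.17 to 0.29 uninduced and −0.20 to 0.0097 induced, and the CER7 opposite share −4.89 to 2.86 and −0.170 to 3.30 percentage points. The RRP44A to CER7 ratio between fractions stayed at 0.44 to 0.57, but 9 of its 11 adjusted p-values missed the threshold. The fraction differences of the 3 annotated strands kept their calls, with RRP44A at −1.21 to −0.87 and −0.96 to −0.79.

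The number of strands called over the alternatives ranged from 64 (replicate block) to 262 (common floor) beside 136 for knockdown in poly(A)+, and from 2 (block) to 331 (without ribo-minus uninduced replicate 3) beside 10 in ribo-minus. It ranged from 1092 to 1842 beside 1787 uninduced and from 669 to 1826 beside 1718 induced between fractions, lowest with median-ratio scaling, and from 0 (block) to 252 (without ribo-minus uninduced replicate 3) beside 41 for the interaction. Windows called for their strand ratio ranged from 3 to 98 beside 67 and from 0 to 294 beside 160 for knockdown, from 9 to 339 beside 179 and from 3 to 319 beside 28 between fractions, and from 0 to 168 beside 73 for the interaction. The strand opposite RRP44A and its strand ratio are given no value here, since its groups lie at the detection limit. Detection limits were highest in the uninduced ribo-minus libraries (1005 and 786) and in induced ribo-minus replicate 1 (776).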
